A study of Mus musculus with 4 samples.

Results

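The array carries probes for genome intervals that its design names by position alone, with no transcript accession. Of 4276 such probes on the 19 mouse autosomes, 1796 were well above background on wild type array 2 and on both Rb-deficient arrays, and these make up the intergenic autosomal region probes described here. The array holds 56605 probes in all. A probe of this kind has an interval (mm9 build) and a strand letter, F or R, in its name. Which strand of the labelled material each letter reads is not stated in the sources used here, and the array files hold neither a gene name nor a probe sequence for these intervals. Since the members were chosen by detection on 3 of the 4 arrays, their levels there are given as a description, with no test.

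RNA of isolated pancreatic islets was measured on 4 Agilent arrays of a single colour, 1 mouse each. The 2 mice called wild type in the labels carried the Pdx1-Cre transgene alone, and the 2 Rb-deficient mice were Pdx1-Cre:Rbf/f. Thus every mouse carried Cre, and the groups differ in the floxed Rb alleles. Age, strain and sex are not given in the labels. The Pdx1 promoter drives Cre in the pancreatic lineage, so endocrine, acinar and duct cells can lose Rb, whereas immune and vascular cells in an islet preparation keep it.

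Long intergenic noncoding RNAs are transcripts from stretches between protein-coding genes. They are spliced like messenger RNA but encode no known protein, and were first catalogued in mouse from chromatin marks of active promoters and transcribed bodies. Many are expressed at low levels and in a few cell types, and some act on chromatin or as hosts of small RNAs. In islets, some are known to be particular to beta or alpha cells, and the imprinted Meg3 is known to be expressed there.

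Several features of the arrays bear on these dim probes. Wild type array 1 stood apart, with 76.5% of all probes well above background against 59.0% to 59.9% on the other 3. It alone had signal for the Y-linked genes Ddx3y, Eif2s3y, Kdm5d and Uty, and Xist was not well above background there. Levels below are log2 ratios of a probe's background-corrected signal to the 75th percentile of its array. On this scale Rb1 was at 0.28 and 0.86 in wild type islets, and at -0.48 and -0.90 in Rb-deficient islets (limma adjusted p 0.743, Benjamini-Hochberg). The array has 2 Rb1 probes, and these values are from a single probe. Beta cell markers were well above background on all arrays (8 of 8 genes). All 9 acinar markers were lower in mean in Rb-deficient islets, with a summed signal, in multiples of the 75th percentile, of 5596 and 4577 in wild type and 3965 and 2187 in Rb-deficient islets. All 6 macrophage markers were higher, with sums of 8.93 and 9.22 against 10.5 and 14.9. In bulk tissue, fewer cells of a type and less RNA per cell cannot be told apart.

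Signal from these intervals was common but faint. Of the 4276 interval probes, 75.1% had signal well above background on wild type array 1, 47.8% on wild type array 2, and 49.7% and 46.7% on Rb-deficient arrays 1 and 2. On the 3 arrays of the rule together the share was 42.0%, against 69.8% of 29638 probes with a RefSeq messenger RNA accession and 35.5% of 2477 with a RefSeq noncoding RNA accession. A further 964 interval probes had signal on wild type array 1 alone, and 956 on no array. The median level of the members was -1.98 on wild type array 1, -2.40 on wild type array 2, -2.28 on Rb-deficient array 1 and -2.63 on Rb-deficient array 2. Between 19.1% and 22.0% of them lay above the 75th percentile of their array. Of all members, 1791 were well above background on wild type array 1 too.

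At the edge of the rule, the 20 members with the weakest signal on any of the 3 arrays had levels there of -5.42 to -5.20. The 217 interval probes that were well above background on only 2 of the 3 arrays had a mean over the 3 of -5.80 to -3.46, where the members' mean ran from -5.11 to 8.17. The levels on both sides of the edge thus overlap.

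The members came from 1480 intervals with a median length of 11980 bp, between 90 and 533972 bp. Interval probes outside the set had a median interval length of 9537 bp. Of probes for intervals shorter than 1 kb, 31.4% were members, and of those for intervals of at least 50 kb, 48.7%. The letters were evenly split, with 889 F and 907 R probes. By chromosome, the share of interval probes that were members ran from 33.0% on chromosome 13 to 52.6% on chromosome 17.

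The brightest signals came from a handful of intervals. Probe A_30_P01023523 (chr6:116092274-116144199, F) had levels of 8.41 and 8.21 in wild type and 8.27 and 8.03 in Rb-deficient islets. For probe A_30_P01031264 (chr12:73838608-73862621, R) they were 8.43 and 8.20 against 8.25 and 7.98. In both, the groups overlapped. Probe A_30_P01031448 (chr14:78924115-78938125, F) lay at 8.42 and 8.14 in wild type and at 8.05 and 8.01 in Rb-deficient islets, with no overlap but a gap smaller than the spread between the wild type arrays. The next 5, on chromosomes 6, 2, 12, 17 and 7, had levels between 6.60 and 7.98. Probes differ in how well they bind, so this order is of signal and not of RNA amount.

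The design printed 5 of the members 10 times each, which shows how exact a single value is. The SD between the spots of a probe on an array was 0.025 to 0.090. Probe A_30_P01026091 (chr6:116123643-116124550, F) had levels of 4.60 and 4.67 in wild type and 4.79 and 4.88 in Rb-deficient islets. Another probe of the same interval, A_30_P01026611, gave 4.48 and 4.57 against 4.67 and 4.78. Their differences, Rb-deficient minus wild type, were 0.20 and 0.20, and both Rb-deficient arrays lay above both wild type arrays. Neither was called (limma adjusted p 0.865 for both, Benjamini-Hochberg). Probe A_30_P01020514 (chr17:39983902-39985688, F) was at 6.35, 6.22 and 6.26 on the first 3 arrays, which are both wild type arrays and Rb-deficient array 1, and at 5.61 on Rb-deficient array 2. Its difference of -0.35 thus came from that array. The remaining ones, A_30_P01021243 (chr17:48068261-48087905, F) and A_30_P01020937 (chr2:167085700-167117795, R), differed by 0.18 and -0.01. The SD between the mice of a group was 0.0079 to 0.10 in wild type and 0.066 to 0.47 in Rb-deficient islets. The value of a mouse is a mean of 7 to 10 spots and so varies less from spot to spot noise than a single spot does. The SDs between spots and between mice are thus not directly comparable. For these bright probes the SD between mice ran from below the SDs of single spots to far above them.

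No member was called different between Rb-deficient and wild type islets. Limma, fitted over 33850 probes with Benjamini-Hochberg adjustment, called 0 of the 1796 members and 0 of all probes, a background of 0.0%, and the lowest adjusted p among the members was 0.187. At an unadjusted p under 0.05 there were 83 members, or 4.62%, where the background over all probes was 5.6%. They were 15 higher, 0.835% against a background of 1.43%, and 68 lower, 3.79% against 4.17%. Among the 30986 probes that met the same detection rule, the shares were 3.98% in all, 1.3% higher and 2.68% lower. The members' share thus lay below the first background and above the second. With 2 against 2 arrays an exact two-sided permutation test of a single probe can give no p below 0.33, so none was run.

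More members were lower than higher in Rb-deficient islets, most of them by little. The mean was higher for 432 members, 24.1% against 41.4% of all probes tested, and lower for 1364, 75.9% against 58.6%. The median difference was -0.25 on the log2 scale, where that of all probes was -0.07. From the 5th to the 95th percentile, the members' differences ran from -1.10 to 0.32. The groups did not overlap for 671 members, 37.4% against a background of 36.1%. Both Rb-deficient arrays lay below both wild type arrays for 543 members, 30.2% against a background of 21.3%, and above them for 128, 7.13% against 14.8%. Of the probes detected alike, 19.2% lay apart downward and 15.6% upward. At least 2-fold lower were 114 members, 6.35% against 7.39%, and at least 2-fold higher 11, 0.612% against 1.57%. Among the 30986 probes with the same detection these shares were 3.72% and 1.2%, so that the members' share of 2-fold lower probes was below that of all probes tested and above that of probes detected alike. The direction depends on the scaling. With each array set to its median, the members' median difference was 0.19 and that of all probes 0.37. In that fit 1235 members, 68.8%, were higher against a background of 76.6%, and the others were lower against 23.4%. With quantile normalization the members' median was -0.02 and that of all probes 0.04. The members' median lay 0.18 below that of all probes, a gap that array median scaling cannot change. With normexp the members lay at -0.09 from all probes, with quantile normalization at -0.06 and without wild type array 1 at -0.04. The calls depend on it too, since with the array median limma called 11 members against a background of 1.69%. They were 5 higher, with 0.83% over all probes, and 6 lower, with 0.863%.

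Wild type array 1 and Rb-deficient array 2 each carried a large share of this shift. It gave the highest of the 4 values for 64.5% of members, and Rb-deficient array 2 the lowest for 57.9%. Without wild type array 1 the members' median difference was -0.07 (all probes -0.03), and 725 members, 40.4%, were higher, against a background of 45.7% in that fit, while 1071 were lower against 54.3%. Without Rb-deficient array 2 the median was -0.10. The shift also differed between ranges of signal. Among 726 members with a mean below -3 over the 3 arrays of the rule, wild type array 1 stood 0.57 above wild type array 2 in median, and the median difference between groups was -0.40. Among 714 members from -3 to 0 these were 0.27 and -0.20, and among 356 members at 0 and above, 0.17 and -0.08. Set against wild type array 2, Rb-deficient array 1 stood at 0.06, 0.05 and 0.01 in the same ranges and Rb-deficient array 2 at -0.24, -0.16 and -0.06. Both wild type array 1 and Rb-deficient array 2 thus departed from the middle arrays most in the dimmest range. The ranges were set on a mean that held both Rb-deficient arrays and not wild type array 1. A probe low on the Rb-deficient arrays thus falls more easily into the dim range, which by itself lowers the difference there. How much of the trend this makes was not tested.

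Messenger RNA probes chosen by the same detection departed in the same way mainly at the dim end. Below -3, 3247 such probes had a median difference of -0.32, and wild type array 1 stood 0.44 above wild type array 2. From -3 to 0 their median was -0.03 in 7756 probes, and at 0 and above it was 0.07 in 9681 probes. RefSeq noncoding RNA probes lay between, at -0.37, -0.08 and 0.00 in the same ranges. For 63 probes of X chromosome intervals the median was -0.23. The ranges were set in the same way as for the members, with the same limit. The difference between these classes was not tested.

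Single intervals are given as values, since none was called. They were picked for groups that did not overlap and for the smallest unadjusted p in limma. That choice favours large differences and close replicates. Among those higher in Rb-deficient islets, probe A_30_P01027809 (chr12:117623500-117643575, R) had the smallest p. It lay at -3.63 and -3.48 in wild type islets and at -1.46 and -1.43 in Rb-deficient islets. The groups were far apart and the replicates close. The signal was 4.31-fold higher, a log2 difference of 2.11 (SE 0.18, limma adjusted p 0.237, Benjamini-Hochberg). With normexp background correction and an offset of 50, an alternative way to treat dim signals, the difference was 1.09 (limma adjusted p 0.699, Benjamini-Hochberg). The probe of the other strand of this interval was not well above background on any array.

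Probe A_30_P01023554 (chr17:34018371-34019394, R) lay at -4.22 and -4.84 in wild type and at -2.98 and -2.01 in Rb-deficient islets, 4.09-fold higher, with the wider spread on the Rb-deficient side. Its log2 difference was 2.03, and 0.79 with normexp. Probe A_30_P01022829 (chr1:78591605-78606083, R) lay at -1.93 and -2.31 against -0.76 and -0.21, a difference of 1.63 (SE 0.29). Probe A_30_P01021493 (chr3:93564825-93576725, F) was 2.82-fold and probe A_30_P01028019 (chr3:36280098-36347798, F) 2.73-fold higher. For A_30_P01021493 the log2 difference with normexp was 0.48, a smaller change than 2.82-fold. By the way these probes were picked, the lower Rb-deficient value was above the higher wild type value in each. The R probe of the last interval, A_30_P01019328, differed by 0.31 (SE 0.19), against 1.45 for the F probe. A short F interval inside it, chr3:36299456-36299851, had a difference of -0.21 (SE 0.30). These overlapping probes thus did not share the difference of A_30_P01028019.

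The remaining higher probes had smaller differences. Probe A_30_P01018083 (chr1:183951156-183986156, F) was 2.42-fold, probe A_30_P01032978 (chr15:77164450-77201325, R) 2.04-fold and probe A_30_P01020545 (chr13:62703974-62725544, R) 1.93-fold higher. For the interval on chromosome 15 the F probe, A_30_P01026240, differed in the same direction, by 0.68 (SE 0.37). The adjusted p values of these 8 probes in limma (Benjamini-Hochberg) ran from 0.237 to 0.781. With normexp the difference of A_30_P01032978 was 0.35 in place of 1.03.

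Among the lower probes, an interval on chromosome 6 was the sharpest. Probe A_30_P01022593 (chr6:129151512-129208737, R) had levels of -1.47 and -1.38 in wild type islets and -4.18 and -4.08 in Rb-deficient islets. The log2 difference was -2.70 (SE 0.17, limma adjusted p 0.187, Benjamini-Hochberg), and -1.36 with normexp (adjusted p 0.69). A second R probe of this same interval, A_30_P01028919, differed in the opposite direction. It lay at -5.03 and -5.32 in wild type islets, the latter not well above background, and at -2.50 and -2.56 in Rb-deficient islets. Its difference was 2.64 (SE 0.20, limma adjusted p 0.219, Benjamini-Hochberg), with the wild type level measured on 1 of 2 arrays. With normexp it was 0.90 (limma adjusted p 0.731, Benjamini-Hochberg). The probe passed the filter for testing only through the Rb-deficient arrays, where it was high. It is no member because of its low signal on wild type array 2. The F probe, A_30_P01029340, was at 0.30, -0.14, 0.02 and -0.21 on the 4 arrays in the order above, with overlapping groups. The probes of this interval thus differed in direction, and the second R probe and the F probe were looked at after the first was known.

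A set of 4 lower probes had larger differences between the mice of a group. Probe A_30_P01031981 (chr9:78372153-78372834, F) lay at 4.95 and 4.15 in wild type and at 2.34 and 0.84 in Rb-deficient islets, 7.81-fold lower. For probe A_30_P01029178 (chr1:36086491-36087863, R) the levels were 3.81 and 2.94 against 1.33 and -0.14, 6.87-fold lower. For probe A_30_P01018249 (chr8:113968152-113973727, R) they were 1.70 and 0.77 against -0.82 and -2.13, 6.54-fold lower. Probe A_30_P01023759 (chr16:8738782-8830148, R) was at 0.39 and -0.41 against -1.58 and -2.34, 3.86-fold lower. In all 4, as in the lower probes A_30_P01023243 and A_30_P01025644, wild type array 1 was the highest and Rb-deficient array 2 the lowest. The summed acinar markers had that order too, with 5596, 4577, 3965 and 2187 on the 4 arrays, and none of the 9 was at background. Their part in these differences was not tested. For the interval on chromosome 16, a second R probe (A_30_P01018039) and the F probe (A_30_P01022742) differed by -0.28 and -0.10 only.

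Probes A_30_P01023243 (chr2:25774411-25783736, F), A_30_P01026189 (chr2:143963320-143984245, R) and A_30_P01025644 (chr2:115892960-115911647, F) were 2.68-fold, 2.48-fold and 1.96-fold lower. All 3 lie on chromosome 2, far apart. Within the first interval, the R probe of chr2:25782483-25783075 had levels of -0.11 and -0.16 against -0.19 and -0.18, a difference of -0.05. Within the last, the F probe of chr2:115900355-115900904 differed by -0.47 (SE 0.39). Across the 8 lower probes the adjusted p values in limma (Benjamini-Hochberg) were 0.187 to 0.706. With normexp the differences of A_30_P01023243 and A_30_P01026189 were -0.73 and -0.50, in place of -1.42 and -1.31.

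Probes for both strands allow a look at whether an interval gives signal from the F and the R side. The array had both letters for 812 intervals. Both were members in 209 of these, only F or only R in 390 and neither in 213. Over the 209 intervals, the differences of F and R probes had a Pearson's r of 0.108, the median gap between them was 0.35, and 151 had the same sign. For 98 intervals with 2 or more member probes of the same letter, the first 2 by name had an r of 0.343, a median gap of 0.23 and 69 with the same sign. These correlations are across intervals measured on the same 4 arrays and are a description. The 2 letters thus often gave different values, and so did probes of the same letter, though by less.

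The interval chr14:77006215-77063293 had the widest gap between letters in the difference, Rb-deficient minus wild type, among the 6 brightest intervals of this kind. Its gap in level was not the widest. Its R probes, A_30_P01021251 and A_30_P01028302, lay at 4.70 and 4.89 and at 4.68 and 4.83 on the wild type arrays. On the Rb-deficient arrays they lay at 5.02 and 5.18 and at 4.93 and 5.07. Its F probe, A_30_P01030926, lay at 1.04 and 1.13 against 0.78 and 0.45. The differences were 0.31, 0.24 and -0.47, each with groups that did not overlap and none called (limma adjusted p 0.863 for all 3, Benjamini-Hochberg). An interval bright on both letters, chr12:73838608-73862621, had differences of -0.47 (F) and -0.20 (R).

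Intervals also lay close together. When intervals within 100 kb of each other were joined, the members fell into 959 groups, 630 of a single interval and 2 of 10 intervals, the largest. The cluster at chr8:122712014-123008463 had 11 probes, with differences of -0.61 to 0.17 and a median of -0.23, close to that of all members. The cluster at chr17:6265275-6615425, 1 of 6 clusters with 6 intervals, had 8 probes and a median of -0.14, with differences of -1.77 to 0.30.

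The other cluster of 10 intervals, at chr12:110738120-110988678, was low mainly on a single array. All 11 of its probes had a lower mean in Rb-deficient islets, with a median of -0.72. Its Rb-deficient array 2 was the lowest of the 4 arrays in 10 probes, and lay 1.58 below Rb-deficient array 1 in median, where that gap was 0.21 over all members. For the F probes of chr12:110842154-110883594, levels were 2.10, 1.64 and 1.91 on the first 3 arrays and 0.09 on Rb-deficient array 2, and -0.05, -0.54 and -0.04 against -1.91. The R probe of chr12:110845020-110850870 was at -2.05, -2.22, -1.95 and -3.78. The F probe of chr12:110909258-110913909 was at -0.21, -0.63, -0.33 and -2.24, and that of chr12:110944403-110988678 at 0.33, 0.57, 0.42 and -0.88. The largest difference, -1.67, was that of probe A_30_P01023923 (chr12:110896603-110940553, F), at -1.93 and -1.04 against -2.34 and -3.97, and the difference was -0.98 with normexp. Signal from both letters was thus low on that array. The groups were apart in 1 of the 11 probes only, where the share was 36.1% of all probes tested and 34.8% of those detected alike. Without Rb-deficient array 2 the cluster's median difference was 0.04, and without Rb-deficient array 1 it was -1.51. In median the lower values are thus those of a single mouse, but not in every probe. Probe A_30_P01028319 was highest on Rb-deficient array 2, at 0.19. Probes A_30_P01023180 and A_30_P01026915 were highest on wild type array 1, at -3.36 and -3.73. In these, wild type array 2, at -4.88 and -5.08, lay below Rb-deficient array 1. In A_30_P01023923, Rb-deficient array 1 also lay below both wild type arrays.

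Distal chromosome 12 in mouse is known for the imprinted Dlk1-Dio3 domain, in which the maternal copy gives rise to the noncoding RNAs Meg3, Rian and Mirg. The RefSeq table of another build (GRCm38.p6) places these 3 genes on chromosome 12 as well, but coordinates were not carried between builds, so that the intervals are not assigned to a gene. Probes named for these genes are not members and are given beside them. The brightest of 4 Meg3 probes lay at 6.19, 6.13 and 6.21 on the first 3 arrays and at 4.60 on Rb-deficient array 2. The other 3 Meg3 probes were also lowest there, at 2.30, 1.46 and -0.14, against 3.51, 3.41 and 1.04 on wild type array 1. Mirg was at 3.25, 3.12, 3.20 and 2.02, and Rian at 4.71, 4.24, 4.50 and 3.98. All 3 genes thus had their lowest signal on the array where the cluster was low, which was also the lowest array for 57.9% of all members. For Rian the value there, 3.98, was close to the 4.24 of wild type array 2. None was called, and limma's adjusted p values (Benjamini-Hochberg) were 0.863 to 0.888 over these 6 probes. Dlk1, the protein-coding gene of the domain that is active on the paternal copy, differed in the other direction, by 1.21 and 0.92 in its 2 probes (limma adjusted p 0.601 and 0.781, Benjamini-Hochberg). They lay at -2.0, -2.0, -0.6 and -1.0 and at -3.7, -4.0, -2.7 and -3.1 on the 4 arrays. Dlk1 was thus higher on both Rb-deficient arrays and highest on Rb-deficient array 1, and did not mirror the low values on Rb-deficient array 2.

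On the same array Gcg, which encodes glucagon and marks alpha cells, was low, at 9.34, 9.44 and 9.26 on the first 3 arrays and 7.96 on Rb-deficient array 2. Beta cell markers summed to 3012, 2676, 2883 and 2093, mainly from the brightest of them, Ins1, Ins2 and Iapp. Those 3 were lower in mean in Rb-deficient islets. The other 5 were higher, and the median difference over the 8 genes was 0.11. The part of these cell types in the values of the cluster was not tested.

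A list of 39 annotated noncoding RNAs gives the setting of named transcripts. Probes were found for 31, of which 26 could be tested and 0 were called. Of these, 10 were higher and 16 lower in mean, with a median difference of -0.21, where all probes had -0.07. Of all probes tested, 58.6% were lower in mean. Miat, a nuclear noncoding RNA, was well above background on both wild type arrays, at -3.66 and -3.94, and on neither Rb-deficient array. It was at least 2.95-fold lower (limma adjusted p 0.247, Benjamini-Hochberg), the bound being the wild type mean against the weakest signal well above background on each Rb-deficient array. Neat1, which builds nuclear paraspeckles, was at 0.21, -0.06 and -0.02 on the first 3 arrays and at -2.04 on Rb-deficient array 2. Kcnq1ot1, an imprinted antisense RNA, was likewise lowest there, at 2.22 against 2.85 to 3.36. Snhg8, a host of a small nucleolar RNA, was highest there, at 4.60 against 3.93 to 4.07. Rb-deficient array 2 was thus the lowest array for some of these RNAs and the highest for others. The array has 2 probes for Miat, 2 for Neat1 and 5 for Kcnq1ot1, and the values of a single probe of each are given.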

How the data were processed

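For every spot the authors deposited an intensity from Agilent Feature Extraction, version 12.0.3.1 in the file headers, which had subtracted background and detrended the array without scaling between arrays. The design is annotated on mm9. A deposited value table of the series holds the same intensity times a constant per array, 2.44, 2.15, 2.49 and 1.74. Here, control and outlier spots (64 to 93 per array) were left out, log2 of the processed signal was set relative to the array's 75th percentile, and repeated spots were averaged. A probe counted as well above background when most of its spots were. The 33850 probes that passed in both mice of either group were tested with limma 3.58.1 in R 4.3.3 (two-sided, no covariates, Benjamini-Hochberg, threshold 0.05, 2 residual degrees of freedom and a prior worth 1.88). The fit was tested on simulated data. Accessions were named through RefSeq (GRCm38.p6), 58.3% of probes. Named probes are, by rule, the 8 brightest, 8 in each direction with the smallest p and groups apart, the 6 brightest intervals with both letters, and the 3 largest clusters (ties by number of probes, then position). Probes printed 10 times, probes sharing an interval with a named probe, and the genes beside the chromosome 12 cluster were added after their values were seen. The members and lists were chosen with earlier results of these data known. The number of arrays limits the precision. The normexp alternative used the median spot signal. Some alpha cell markers are not reported here.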

Additional observations from a re-analysis of the deposited data

How the results depend on the processing

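Scaling and single arrays moved the counts most. With array median scaling, which added a constant to every difference, limma called 573 probes, 281 higher and 292 lower, and among the members 11 (5 higher and 6 lower). The members' median difference was then 0.19, with 1235 higher and 561 lower, and groups apart upward in 493 and downward in 163. The prior degrees of freedom were infinite in that fit, against 1.88. With quantile normalization 865 members were higher, the median was -0.020, and groups were apart in 330 upward and 360 downward. Leaving out an array gave 340 to 725 members higher and 1071 to 1456 lower, with medians of -0.41 to -0.067. Over all probes the medians of these fits were -0.12 to -0.028. Groups were apart in 217 to 398 members upward and 608 to 1228 downward, but a lone array lies apart from a pair more easily by design. Calls are not given for these fits, since a lone array was assumed to vary like the other group. For array median scaling, quantile normalization and these fits, no share of all probes with groups apart is at hand. The counts of groups apart under these settings thus cannot be set against all probes, and nothing particular to the members is read from them. The median level was -1.71 with normexp, 1.11 with array median scaling and -4.28 with the percentile taken over probes detected on all arrays, against -2.32. Counting any significant signal as detected gave 2712 members.

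Array median scaling also took A_30_P01027809, A_30_P01021493, A_30_P01028019, A_30_P01022829, A_30_P01023554, A_30_P01022593, A_30_P01031981, A_30_P01018249, A_30_P01029178 and A_30_P01028919 past the threshold. It turned A_30_P01020514 to 0.087, A_30_P01020937 to 0.42, A_30_P01031264 to 0.24, A_30_P01029340 to 0.27, A_30_P01018039 to 0.16 and A_30_P01022742 to 0.34. A_30_P01020937 was at 0.018 with normexp and between -0.16 and 0.13 with an array left out, and A_30_P01029340 between -0.39 and 0.050. The cause was not tested.

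The replicate number as a block called 0 probes, with 3926 at an unadjusted p under 0.05 against 1895, and same-numbered arrays had deviations correlated at 0.284 over all probes, with 2 pairs only, so the numbers are not taken to pair the mice. Slide could not be a block, since all arrays shared it.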
